A study of Mus musculus with 3 samples.

Results

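Fused and transforming seam epithelium of the mouse palate were compared here, as the array of the 24 h culture against the array of the 12 h culture. These are 2 of the 3 arrays of the series, 1 array a side, chosen by their titles and by no measured value. Of 8251 genes named by probe sets for a single gene, 6141 had a ratio or a bound between them. The series measured RNA of palate medial edge epithelium from CF-1 mouse embryos at the stage the labels call ED13.5, for the embryonic day. At 12 h and at 24 h the paired palatal shelves had been held together in culture for that time after they first touched. The labels call the 12 h epithelium fused, and the 24 h epithelium fused and undergoing epithelial-mesenchymal transformation. The array at 0 h held unfused epithelium with no culture in its label. All 3 samples share the stock, the embryonic age, release of the epithelium with the enzyme Dispase II, and RNA amplification before labelling. No genotype or drug is named, the sources used here do not say how many embryos were pooled, and later state of the seam and longer culture cannot be told apart.

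The secondary palate forms when shelves from the sides of the mouth meet in the midline. The epithelium at their tips adheres into a seam, which is then removed so that mesenchyme becomes continuous across the palate. Transforming growth factor beta 3 is needed for this removal, and loss of seam cells has been described as cell death, migration and transformation into mesenchyme, the last meaning loss of cell junctions and keratins with gain of mesenchymal matrix and cytoskeleton.

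Values are scaled signals of Affymetrix probe sets, a level in arbitrary units after each array was brought to a common trimmed mean, and levels are compared only within a probe set. Signals under 13.53, the pooled 40th percentile of the 3 arrays, count as at the floor. A gene with both arrays above the floor has a measured ratio (5006 genes), where 1 of them was at the floor the ratio is only a bound (1135 genes), and 2110 genes at the floor on both have none. A gene is shown by its brightest probe set unless another is named. With 1 array a side there is no replicate, so no ratio carries an error or a p-value, and "higher" or "lower" describes these 2 arrays. The control ratio of 3' to 5' signal was 11.9 at 12 h and 2.97 at 24 h for Actb (1.02 at 0 h), and 14.9 and 12.6 for Gapdh (0.828 at 0 h). Its part in the differences below was not tested.

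The labelled tissue was checked against its markers. The basal keratins Krt5, Krt14 and Krt15 were at the floor on all 3 arrays, with signals of at most 10.6. Other epithelial genes were present at 12 h and 24 h: Cdh1, which encodes E-cadherin, had signals of 104 and 65.8, Epcam, an epithelial adhesion molecule, 265 and 77.1, and Krt8, a keratin of simple epithelium, 101 and 441. Mesenchymal genes were present as well, with Twist1 at 1444 and 1327 and Col3a1 at 1339 and 779, after 479 and 566 at 0 h. Over 36 mesenchyme markers the summed signal was 16661 at 12 h and 22025 at 24 h, and over 39 epithelial markers 5764 and 4972. Counted by gene the lists did not follow their sums, which bright genes can set. Of 32 mesenchyme markers with a ratio or bound, 8 were at least 2-fold higher and 4 lower, with a median log2 ratio 0.14 below that of all genes. Of 30 epithelial markers 12 were higher and 5 lower, with a median 0.19 above it, and 9 and 9 with the values as deposited. In tissue of mixed cells, fewer cells of a type and less RNA per cell cannot be told apart, and how the mixture bears on the ratios was not tested. Of sex-linked genes, looked at after the values were seen, Xist gave 226 at 0 h and was at the floor on both cultured arrays, and the Y-linked Eif2s3y gave 15.6, 147 and 18.8 at 0, 12 and 24 h. The sources used here do not state the sex of the embryos.

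Of the 6141 genes, 1157 (18.8%) exceeded their 12 h level by 2-fold or more at 24 h, and 737 (12.0%) lay below it by as much, an upward share of 61.1%. In counts of genes, higher and lower mean by 2-fold or more from here on. Of the higher genes 867 were measured on both arrays and 290 rest on a bound at 12 h. Of the lower genes 649 were measured and 88 rest on a bound at 24 h. Differences of at least 4-fold were found for 216 genes upward and 117 downward, and of at least 8-fold for 29 and 10. Over all genes the log2 ratio had a median of 0.17 and quartiles of -0.46 and 0.80. That median depends on the scaling. It came to -0.12 when values were taken as deposited, -0.09 with arrays brought to a common median, 0.01 after quantile normalization and 0.10 after a signal-dependent lowess. The upward share was then 39.4%, 42.1%, 50.9% and 54.3%, so which direction prevailed depended on the scaling, and gene groups are described below by their median less the median of all genes.

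**Figure D1:**
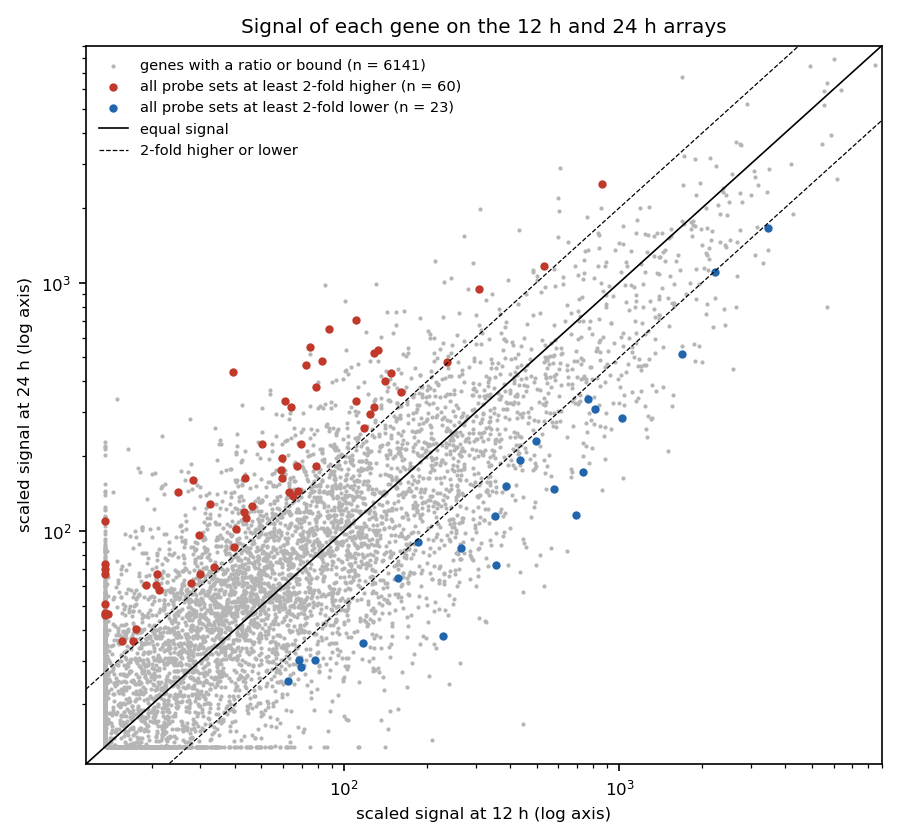
Scaled signal of each gene's brightest probe set at 12 h (x axis) and 24 h (y axis), both log axes, with signals under the floor of 13.53 drawn at the floor. Grey points are the 6141 genes with a ratio or bound, red the 60 genes whose probe sets were all at least 2-fold higher at 24 h, and blue the 23 whose probe sets were all at least 2-fold lower. The blue points lie mostly among bright genes and the red ones reach from the floor to 2497, the 24 h signal of Tubb5.

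The balance of directions differed with brightness. Of the sets that both arrays held above the floor, those in the brightest of 4 equal groups had a median log2 ratio of -0.17, with 14.1% higher and 20.4% lower. In the second dimmest group the median was 0.31, with 21.0% higher and 10.1% lower. In the dimmest group 12.3% were higher and 6.14% lower.

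A gene that several probe sets name was measured more than once on each array. Such probe sets share the RNA, its amplification and the array, so they check the measurement of the gene and not its biological spread. Of 1001 genes with at least 2 probe sets that had a ratio or bound, 60 (5.99%) were at least 2-fold higher by all of them, 23 (2.3%) at least 2-fold lower by all, and 24 (2.4%) at least 2-fold in opposite directions. Signs alone were all upward in 364 genes, all downward in 221 and mixed in 416. The SD of a probe set's log2 ratio about the mean of its gene was 0.82 over the 687 genes with at least 2 measured sets, a factor of 1.76, which is close to the 2-fold rule.

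Agreement also followed brightness. Of 240 genes past 2-fold by their brightest set, the next set had the same direction in 69.6% and repeated the 2-fold difference in 26.7%. The 687 genes were split into 3 equal groups of 229 by the signal of the next set. Where that signal was dim, at 10.4 to 34.2, the next set repeated the difference in 10% of 70 genes. Where it was bright, at 65.7 to 2017, it did so in 41.0% of 83 genes. Across genes the ratios of the pair correlated at r = 0.21 for dim and 0.48 for bright next sets. These are correlations across genes on a shared pair of arrays, and genes are not replicates.

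**Figure D2:**
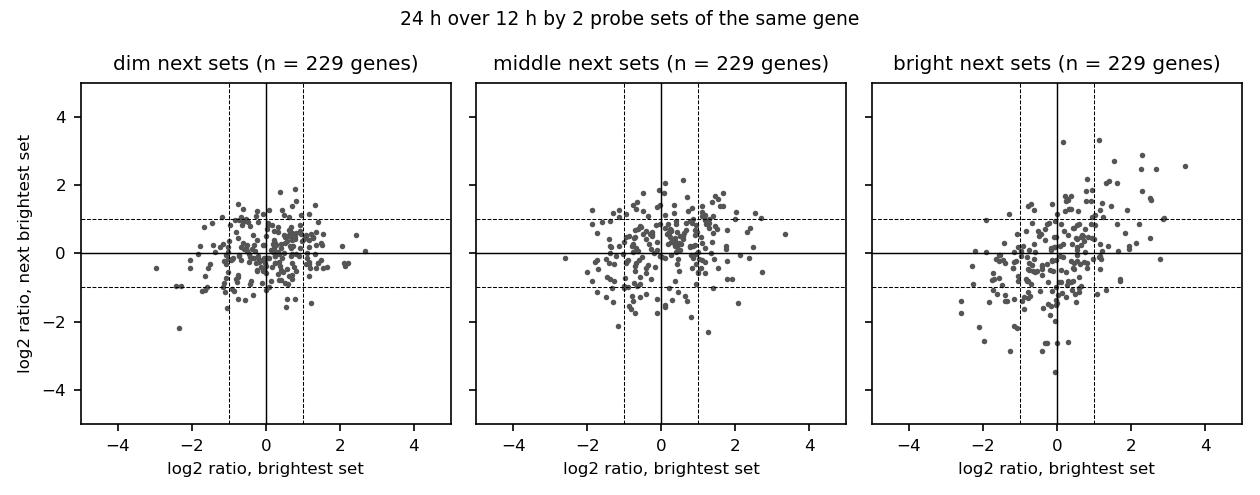
Log2 ratio of 24 h over 12 h by the brightest probe set of a gene (x axis) and by its next brightest (y axis), for 687 genes in 3 equal groups by the signal of the next set. Solid lines mark equal signal and dashed lines 2-fold differences. The points extend along the diagonal where the next set is bright (r = 0.48) and less so where it is dim or middle (r = 0.21 in both).

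Among the genes with agreeing probe sets, the cell cycle inhibitor Cdkn1a ranked first upward. Its brighter set gave 15.1, 72.6 and 466 at 0, 12 and 24 h, and its other set 27.4, 50.9 and 281, so the 24 h level was 6.42-fold and 5.53-fold above that at 12 h. Both sets were lowest at 0 h and highest at 24 h. Gadd45b, a stress-induced regulator of growth arrest and apoptosis, gave 63.8 and 314 by its brighter set and 21.1 and 154 by the other, which is 4.92-fold and 7.32-fold higher at 24 h. Cdk4, the cyclin D-dependent kinase of early G1, gave 973, 128 and 520.3 at 0, 12 and 24 h by its bright set, 4.05-fold higher at 24 h than at 12 h. Its dim set was at the floor at 12 h and at least 6.36-fold higher at 24 h. Here the 12 h array was the low one, and the 24 h level stayed under that at 0 h.

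Fbln1, a glycoprotein of elastic fibres and basement membranes, was higher by 3 probe sets. Its signals at 12 h and 24 h were 39.3 and 436, 54.9 and 322, and 36.7 and 122, which makes 11.1-fold, 5.87-fold and 3.33-fold. At 0 h the same sets gave 458, 263 and 112, so this gene too was lowest at 12 h. Krt17, a keratin of embryonic and injured epithelium, gave 78.9 and 381, then 61.8 and 345, which is 4.83-fold and 5.57-fold higher, and its dimmest set was at least 3.29-fold higher. Krt6a, a keratin of periderm and wounded epidermis, gave 532 and 1163 by one set and 24.8 and 247 by another, 2.18-fold and 9.97-fold higher. Sox4, a transcription factor of embryonic progenitors, gave 28.1 and 160.2, then 56.3 and 174, with 496 and 248 at 0 h. For Sox4 the 24 h level was 5.69-fold and 3.09-fold above that at 12 h, and below that at 0 h by both sets.

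Signalling genes with agreeing sets included Stat3, a transcription factor of cytokine signalling, at 58.7 and 175 (2.98-fold higher) and 32.8 and 86.4 (2.63-fold higher). Named for holding in all 8 settings tried, after those were seen, Rgs16, which shortens G-protein signals, was 2.82-fold and 2.56-fold higher, and Glg1, a Golgi membrane glycoprotein, 2.75-fold and 2.59-fold. Tubb5, a beta-tubulin, gave 864 and 2497 by one set and 268 and 1727 by the other, 2.89-fold and 6.45-fold higher. Itga7, an integrin that binds laminin, was 3.02-fold higher and by its second set at least 3.38-fold. Barx1, a homeobox factor of oral mesenchyme, was 2.71-fold higher and by its second set at least 5.72-fold. Prp2, a proline-rich protein gene, and Rbpms, an RNA-binding protein gene, passed through bounds alone, since all their sets were at the floor at 12 h. The others that ranked in the first 25 were Mark2, Eif4ebp2, Ube2h, Ndrg1, P4ha2, Ddx24, Gcdh, Slc25a1, Bin1, Nedd4l, Grina, Sidt2 and Man2b1, with a smallest fold of 2.60 for Man2b1.

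Of the 23 genes with all sets lower, Tfdp1 ranked first. It encodes a partner of E2F factors in control of the cell cycle, and gave 255, 736 and 173 at 0, 12 and 24 h by its brighter set and 117, 376 and 84.5 by the other. The 24 h level was 4.27-fold and 4.46-fold below that at 12 h, and the 12 h array was the highest of the 3. Yipf5, a membrane protein of the early secretory pathway, gave 576 and 147 (3.92-fold lower) and 428 and 72.1 (5.94-fold lower). Selenok, a selenoprotein of the endoplasmic reticulum, gave 697 and 116, then 277 and 81.8, 6.01-fold and 3.38-fold lower. In both genes the 0 h signals, at most 209, lay below those at 12 h.

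Srsf3, a splicing factor, gave 355 and 72.8 by its brighter set, 4.88-fold lower, and was at least 3.06-fold lower by the other. Eif1ax, an initiation factor that helps to find the start codon, gave 1026 and 286, then 123 and 46.0, 3.59-fold and 2.68-fold lower. Polr3k, a subunit of RNA polymerase III, was 6.05-fold and 2.63-fold lower, and Sar1b, a GTPase of vesicle coats that leave the endoplasmic reticulum, 7.21-fold and 2.42-fold. Gja1, which encodes the gap junction protein connexin 43, gave 3480.5 and 1661 by one set and 147 and 32.4 by the other, 2.10-fold and 4.54-fold lower. The remaining 15 were Piga, Tpsb2, Tmem30a, Ube2d2a, Ifnar2, Rpn2, Hat1, Wtap, Vdac2, Otud4, Nusap1, Plagl1, Arl14ep, Mpdz and Ccni, with a smallest fold of 2.005 for Ccni.

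**Figure D3:**
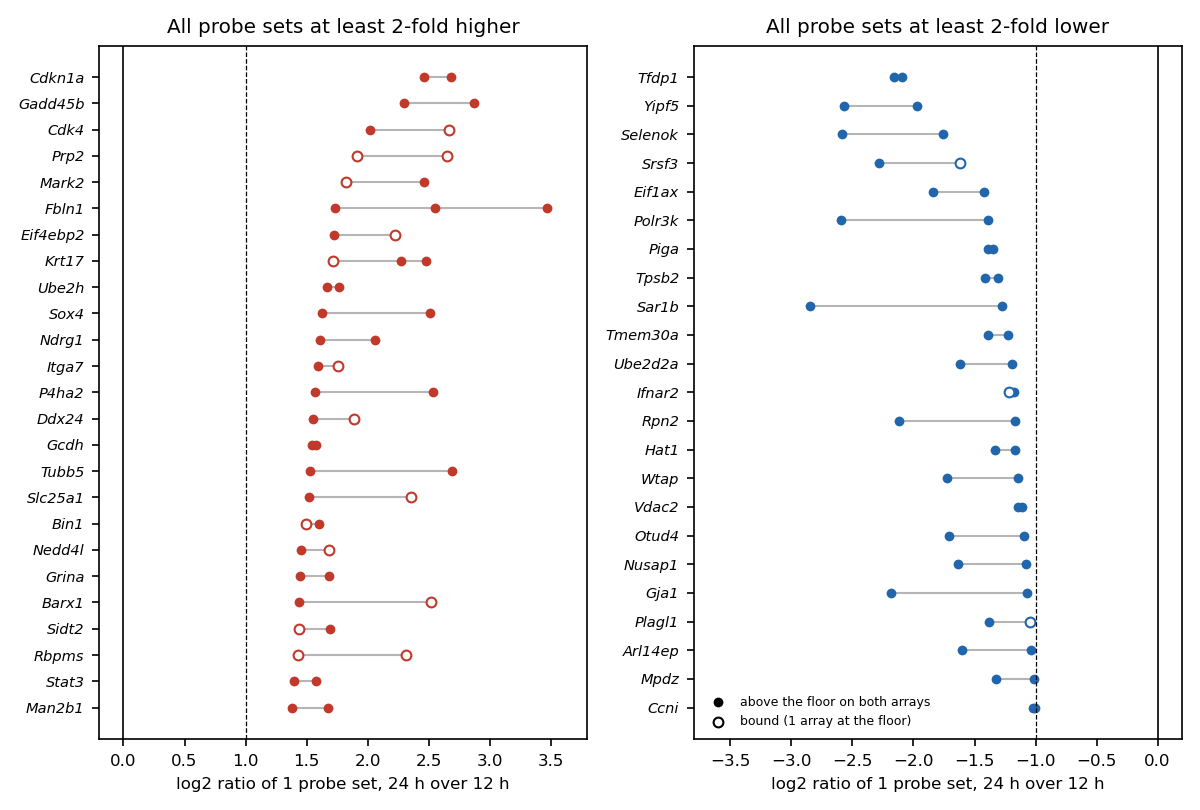
Log2 ratio of 24 h over 12 h by each probe set (x axis) of the first 25 of 60 genes with all sets at least 2-fold higher, left, and of all 23 genes with all sets at least 2-fold lower, right, ranked by the smaller of their ratios. Filled points were above the floor on both arrays, open points are bounds, and dashed lines mark 2-fold. Cdkn1a and Tfdp1 lead, with sets close to each other.

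How many genes agreed depended on the scaling, while some agreed under each. Of the 60 higher genes, 29 stayed so with values as deposited, median scaling, quantile normalization and lowess, among them Cdkn1a, Gadd45b, Cdk4, Fbln1, Krt17, Sox4, Ndrg1, P4ha2, Stat3 and Barx1. Of the 23 lower genes 17 did, among them Tfdp1, Yipf5, Selenok, Srsf3, Eif1ax, Polr3k and Sar1b. Of the higher genes named in the text, Krt6a, Grn and Prkcz held under some of these 4 scalings, and Irf7, Agrn and Cd151 under none. Of the lower genes, Gja1, Rpn2, Vdac2, Arl14ep, Ccni and Plagl1 did not hold under each. With scaling and floor taken from the 12 h and 24 h arrays alone, floors at other percentiles and the omission of probe sets of lower specificity added, making 8 settings, 7 higher genes held in all (Cdkn1a, Cdk4, Fbln1, Sox4, Stat3, Glg1 and Rgs16) and 2 lower ones (Yipf5 and Eif1ax). The median promoter GC content was 61.8% for the 48 higher genes with a RefSeq promoter and 63.0% for the 18 lower ones, against 60.7% over all genes with a ratio.

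In 24 genes the probe sets opposed each other. Tnc, a matrix glycoprotein of remodelling tissue, was 2.38-fold higher by one set (98.6 and 235) and 4.97-fold lower by the other (69.4 and 13.96). Rpn1, a subunit of the oligosaccharyltransferase, was 2.49-fold higher and 2.12-fold lower, and Iqgap1, a scaffold of the actin cytoskeleton, 2.43-fold higher and 2.23-fold lower. Ghitm, an inner membrane protein of mitochondria, was 4.20-fold higher and 2.72-fold lower. For Fgfr2, a growth factor receptor, a bright set gave 207 and 199, a log2 ratio of -0.06, between a dimmer set at least 2.69-fold higher and another at least 2.23-fold lower. The others were Amz2, Csnk2a1, Cyb5r1, Gnb1, Ibsp, Lypla1, Map11, Mrpl50, Osbpl1a, Prss8, Ralgds, Rpl22, Sac3d1, Serpinf1, Smarcad1, Srsf4, Tug1, Wipi2 and Zc3h15. Here no direction is given for these genes, but counts of genes and of list members take each by its brightest set. By that set Tnc, Prss8, Serpinf1 and Srsf4 count as higher in lists described below.

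Hypoxia-induced genes had the highest median of the gene groups described. These are targets of hypoxia-inducible factor, a transcription factor that is degraded while oxygen is plentiful. The letters ACGTG are 1 form of the core that it binds. Members named in this and the later groups are the first 4 in each direction and those with agreeing probe sets, and any others were named after their values were seen. Of 21 members with a ratio or bound, 11 (52.4%) were higher at 24 h and 1 lower, against 18.8% and 12.0% of all genes, and the group median lay 0.98 above that of all genes. Across 9 alternative settings it lay 0.57 to 0.99 above. Promoters of P4ha2 and Ddit4 are shown because both carry ACGTG and stand among the leading members. They are RefSeq sequences of build GRCm38.p6, 250 bases before to 50 after the gene start, 5' to 3' on the gene's strand, with ACGTG in capitals. P4ha2 lies on the plus strand at chr11:54100674-54100973 and Ddit4 on the minus strand at chr10:59951721-59952020.
P4ha2: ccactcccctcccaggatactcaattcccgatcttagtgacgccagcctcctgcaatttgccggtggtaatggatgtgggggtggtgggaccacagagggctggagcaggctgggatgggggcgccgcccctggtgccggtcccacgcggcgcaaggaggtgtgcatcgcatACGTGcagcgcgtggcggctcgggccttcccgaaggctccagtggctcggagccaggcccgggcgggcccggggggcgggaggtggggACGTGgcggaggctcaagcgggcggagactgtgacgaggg
Ddit4: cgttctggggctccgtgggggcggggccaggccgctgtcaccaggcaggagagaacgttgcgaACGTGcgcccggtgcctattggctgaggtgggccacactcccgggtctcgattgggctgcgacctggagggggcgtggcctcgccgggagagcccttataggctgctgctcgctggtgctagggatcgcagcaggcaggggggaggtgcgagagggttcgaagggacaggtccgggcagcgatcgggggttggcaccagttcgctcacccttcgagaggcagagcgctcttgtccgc

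Searched on both strands, ACGTG stood in the promoters of 11 of 15 hypoxia-induced genes with a sequence, in 26.0% of 4931 genes with a ratio and in 19.6% of 32851 promoters of the table. It stood in 6 of 8 members that were 2-fold higher and in 5 of 7 that were not, so these letters did not separate them. Other forms of the core were not searched. A match is a description of letters and not a bound site.

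P4ha2, a subunit of the prolyl hydroxylase that stabilizes collagen, had signals of 98.8, 83.1 and 482 at 0, 12 and 24 h by its brighter set and 37.7, 117 and 347 by the other. It was 5.80-fold and 2.96-fold above its 12 h level at 24 h, and the 24 h array was the highest by both sets. P4ha1, the sister subunit, gave 59.2, 75.5 and 257, a 3.41-fold difference. Ddit4, which restrains mTOR signalling, gave 162, 609 and 2892, 4.75-fold higher at 24 h than at 12 h, a stepwise order from 0 h. Ndrg1, a stress-responsive gene that hypoxia induces, gave 88.4, 308 and 940.5, then 72.9, 166 and 695, which is 3.06-fold and 4.17-fold. Car12, a carbonic anhydrase, was at least 4.23-fold higher. Members on the other side were Bnip3, a mitophagy receptor, with 124 and 44.2 (2.81-fold lower), Higd1a (log2 -0.94) and Hif1a itself, which encodes the oxygen-regulated subunit, at 2442 and 1384 (log2 -0.82). Both measured sets of Hif1a gave a 1.76-fold lower level.

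Glycolytic enzymes and glucose transporters had 7 of 19 members (36.8%) higher and 1 (5.26%) lower, against 18.8% and 12.0% of all genes. The median lay 0.67 above that of all genes, and the counts were 6 and 1 with the values as deposited. The glucose transporter Slc2a1 gave 84.9, 51.9 and 138 at 0, 12 and 24 h, a 2.67-fold difference between the cultures. Tpi1, triosephosphate isomerase, gave 1016, 231 and 1006, and its 24 h level differed little from that at 0 h. Pfkm, a phosphofructokinase, was at least 4.31-fold higher. Pkm, pyruvate kinase, was 6.86-fold higher by 1 set and had a log2 ratio of -0.18 by the other. Pdk1, which inhibits entry of pyruvate into the citric acid cycle, was the member on the other side, at 222 and 104 (2.14-fold lower). Pgk1 had a log2 ratio of -0.25, or 0.19 after lowess. The enzymes thus did not share 1 pattern over the 3 arrays.

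**Figure D4:**
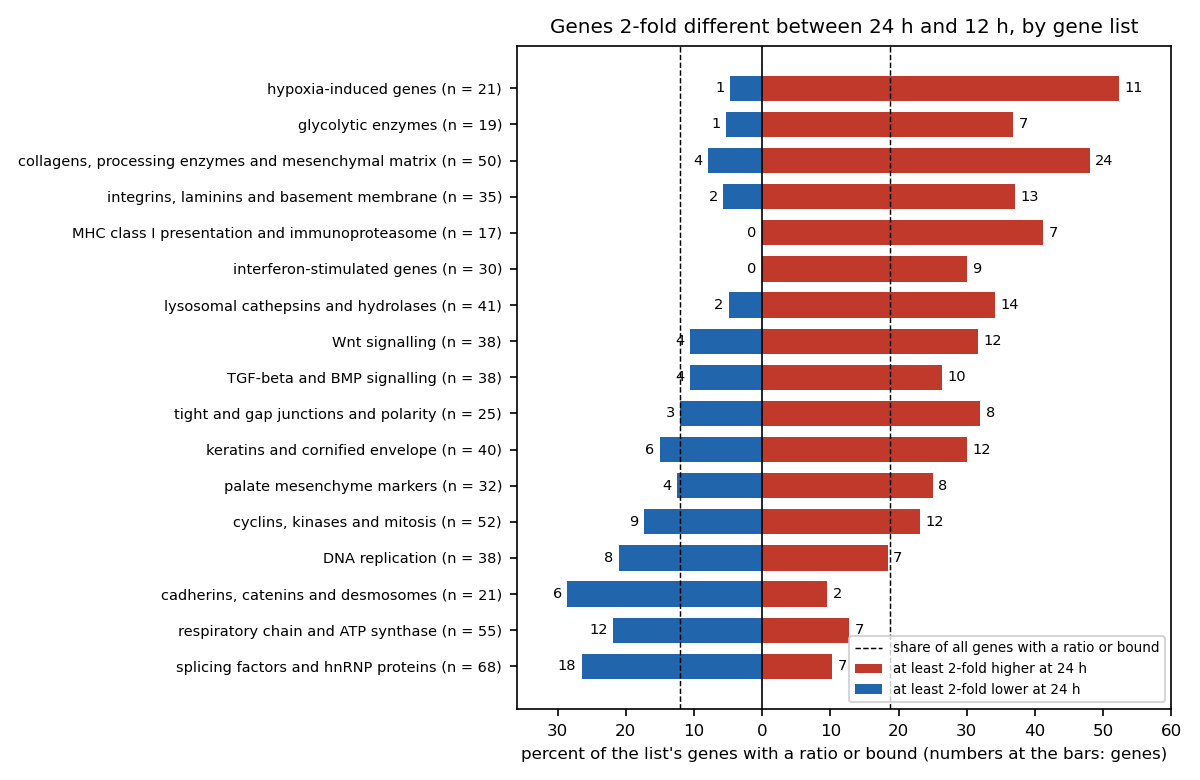
Percent of the members of 17 gene lists that were at least 2-fold higher (red, to the right) or lower (blue, to the left) at 24 h than at 12 h, with the number of genes at each bar and the number with a ratio or bound in parentheses. Dashed lines mark the shares of all genes, 18.8% higher and 12.0% lower. Hypoxia-induced genes and the collagen and matrix list reach farthest to the right, cadherins and splicing factors farthest to the left.

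Genes of collagens, their processing enzymes and mesenchymal matrix included 24 of 50 members (48.0%) that were higher at 24 h and 4 (8%) that were lower. Over all genes the shares were 18.8% and 12.0%. With the values as deposited the counts were 17 and 5. The 24 include Tnc by its brightest set, although its sets opposed each other. The median lay 0.75 above that of all genes, and 0.59 to 0.78 above it across the settings. Besides Fbln1, the members with the largest upward ratios were Mfap2, a microfibril protein (20.5 and 170.4, 8.31-fold), P4ha2, and Eln, which encodes elastin. Eln gave 440.2, 214 and 1216 at 0, 12 and 24 h, 5.67-fold higher at 24 h than at 12 h. Mfap2 was at 775 at 0 h, so its 24 h level was intermediate, whereas Eln was highest at 24 h. Bgn, the proteoglycan biglycan, gave 287, 271 and 1540.2 by its brighter set, also 5.67-fold, but a log2 ratio of 0.46 by the other. Col6a1, a chain of the microfibrillar collagen VI, gave 335, 165 and 771, or 4.67-fold, and 1.82-fold by its other set. Its partner chains Col6a2 and Col6a3 were 3.03-fold and 2.15-fold higher.

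The fibrillar collagens went different ways. Col5a2 gave 819, 1988 and 477 at 0, 12 and 24 h, 4.17-fold lower at 24 h than at 12 h, while Col5a1 gave 215, 487 and 1099.5, 2.26-fold higher, with 1.22-fold by its other set. Col11a1 gave 301 and 59.9, 5.03-fold lower. Col3a1 was lower by all 3 of its sets, by 1.72-fold, 1.75-fold and 4.98-fold. Col1a2 was higher by both of its sets, by 1.88-fold and 1.82-fold, and Col1a1 gave log2 ratios of -0.69 and 1.43. Postn, a matricellular protein of periosteum and mesenchyme, gave 2074 and 822, 2.52-fold lower. Has2, a synthase of hyaluronan, gave 36.1, 157 and 19.1, 8.19-fold lower at 24 h than at 12 h and the largest downward ratio of the list. Genes encoding 2 chains of 1 collagen heterotrimer, Col5a1 and Col5a2, therefore lay on opposite sides.

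Integrins, laminins and other genes of the basement membrane had 13 of 35 members (37.1%) higher and 2 (5.71%) lower, against 18.8% and 12.0% of all genes. The median lay 0.27 above that of all genes, and the counts were 11 and 3 with the values as deposited. Itgb5, an integrin subunit that binds vitronectin, gave 329, 27.6 and 282 at 0, 12 and 24 h, 10.2-fold higher at 24 h than at 12 h, but only 1.47-fold by its other set. Lama4 gave 22.3 and 155 (6.96-fold) and Sdc4, a syndecan of focal adhesions, 17.5 and 94.1 (5.39-fold). Lamb3, a chain of the laminin under stratified epithelium, was at least 4.38-fold higher. Members with agreeing sets were Itga7, Agrn and Cd151. Agrn, the heparan sulphate proteoglycan agrin, was 4.04-fold and 2.30-fold higher. Cd151, a tetraspanin that binds laminin receptors, was 2.39-fold, 2.09-fold and at least 8.27-fold higher. The agreement of Agrn and Cd151 was kept under none of the 4 other scalings. On the other side Itgav, an integrin subunit that helps to release latent transforming growth factor beta, gave 1254 and 256 (4.90-fold lower), with 1.95-fold lower and a bound of 1.12-fold higher by its other sets. Lamb1 gave 258 and 82.7 (3.12-fold lower), and 1.12-fold lower by its second set.

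Of class I antigen presentation genes 7 of 17 were higher at 24 h and 0 lower, and of interferon-stimulated genes 9 of 30 and 0. With the values as deposited these counts were 6 and 2, and 6 and 0. The medians lay 0.66 and 0.42 above that of all genes. H2-D1, a class I heavy chain, gave 59.4 and 293 by its brighter set, 4.93-fold higher, and 3.53-fold and 1.62-fold by the others. Sets for class I heavy chains may share RNA of related genes. H2-K1 was 4.30-fold higher by 1 set and had a log2 ratio of -0.28 by another. The immunoproteasome subunit Psmb10 gave 42.5 and 193 (4.53-fold) and Tap2, a peptide transporter, was at least 3.26-fold higher. B2m, the light chain of class I, gave 102, 682 and 482 at 0, 12 and 24 h, a log2 ratio of -0.50. Psmb8, another subunit of the immunoproteasome, gave 5.34, 76.7 and 222 (2.90-fold higher than at 12 h), with the 0 h array at the floor.

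The interferon-stimulated members with the largest ratios were the chemokines Cxcl9 (13.6 and 54.5, 3.997-fold) and Cxcl10 (29.1 and 89.5, 3.07-fold), Ifi27 (at least 3.66-fold), and Ifit3, which binds viral RNA (42.0 and 138, 3.28-fold). At 0 h Cxcl9, Cxcl10 and Ifit3 were all at the floor, so all 3 were lowest at 0 h and highest at 24 h. Irf7, a regulator of interferon genes, had agreeing sets, with 2.16-fold by a measured set and at least 3.97-fold by a bound. Its agreement was kept in 2 of 8 settings and under none of the 4 other scalings. Isg15, which is conjugated to proteins much as ubiquitin is, gave 16.7, 144 and 379, 2.64-fold higher at 24 h than at 12 h. Leukocytes also make such genes. Of 33 listed leukocyte markers 20 had a ratio or bound. Of these 4 (20%) were at least 2-fold higher and 1 (5%) lower, against 18.8% and 12.0% of all genes. The higher ones were C1qc (3.57-fold), Cd68 (2.93-fold), Cd14 (2.87-fold) and Laptm5 (2.16-fold). The summed signal was 829 at 12 h and 1153 at 24 h. Of the 33 markers 18 were above the floor at 12 h and 17 at 24 h, while Ptprc and Lyz2 were at the floor on all 3 arrays. The part of such cells in the interferon genes was not tested. Promoters of Isg15 and Cxcl10 are printed because both hold GAAA, any 2 bases and GAAA again, a core of the interferon response element, in capitals. The minus-strand regions are chr4:156200769-156201068 for Isg15 and chr5:92348840-92349139 for Cxcl10, from the same table.
Isg15: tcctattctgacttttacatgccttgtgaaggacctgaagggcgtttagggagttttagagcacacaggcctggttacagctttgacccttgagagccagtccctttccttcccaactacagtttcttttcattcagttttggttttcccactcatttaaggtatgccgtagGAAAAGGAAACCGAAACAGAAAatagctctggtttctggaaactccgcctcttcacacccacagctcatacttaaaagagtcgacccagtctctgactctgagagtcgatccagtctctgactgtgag
Cxcl10: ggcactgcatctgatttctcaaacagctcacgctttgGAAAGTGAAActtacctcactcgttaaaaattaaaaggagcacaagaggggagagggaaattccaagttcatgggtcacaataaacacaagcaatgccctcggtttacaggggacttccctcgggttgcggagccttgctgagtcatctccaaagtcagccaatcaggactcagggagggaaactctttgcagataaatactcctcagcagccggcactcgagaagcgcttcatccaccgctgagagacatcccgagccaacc

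The letters stood, on either strand, in 13 of 25 interferon-stimulated genes with a promoter, against 3.02% of genes with a ratio and 3.44% of all promoters. They stood in 4 of 8 members that were 2-fold higher and in 9 of 17 that were not. In Isg15 the 3 matches overlap in 1 stretch, whereas Cxcl10 has 1 match. Both lists were drawn up with knowledge of such targets, so the share among them is a property of the list.

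Epithelial genes went both ways. Keratins and genes of the cornified envelope had 12 of 40 members (30%) higher and 6 (15%) lower at 24 h, against 18.8% and 12.0% of all genes. With the values as deposited the counts were 7 and 9. The keratins led: besides Krt17 and Krt6a, Krt8 gave 102, 101 and 441 at 0, 12 and 24 h (4.38-fold between the cultures), its partner Krt18 gave 63.9, 32.2 and 107 (3.32-fold), and Krt19 gave 70.7, 40.1 and 161 (4.002-fold). Each was highest at 24 h. Ly6d, a surface protein of keratinocytes, was at least 3.41-fold higher. Genes on the other side were regulators and envelope genes. Trp63, the factor that maintains stratified epithelium, gave 75.9, 230.0 and 67.4 (3.41-fold lower), and Klf4, a factor of epithelial barrier formation, 260.1, 675 and 172 (3.92-fold lower). Anxa1, an annexin, gave 2643 and 794, and was 3.33-fold, 2.12-fold and 1.47-fold lower by its 3 sets. Scel, an envelope precursor, was at least 3.35-fold lower. Trp63, Klf4 and Anxa1 had their highest signal at 12 h.

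Adhesion genes of cadherins, catenins and desmosomes had 2 of 21 members (9.52%) higher and 6 (28.6%) lower, against 18.8% and 12.0% of all genes. With the values as deposited the counts were 1 and 9. The list median was the lowest of the groups described, 0.60 below that of all genes and below it in 9 of 9 settings. Ctnnb1, beta-catenin, gave 1439.7, 3479.9 and 1347 at 0, 12 and 24 h (2.58-fold lower than at 12 h). Pkp4, a plakophilin, gave 756 and 219 (3.46-fold lower), Dsc2, a desmosomal cadherin, 394 and 152 (2.59-fold lower), and Cdh2, which encodes N-cadherin, 52.8 and 20.2 (2.61-fold lower). Cdh1, at 112, 104 and 65.8, had a log2 ratio of -0.66. On the other side Cdh3, which encodes P-cadherin, gave 31.0 and 109 (3.52-fold higher), although a dimmer set was at the floor at 24 h with a bound of 1.93-fold lower, and Jup, plakoglobin, was at least 2.57-fold higher. In 5 of the 21 members the ratio lay above the median of all genes.

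Tight and gap junctions and polarity genes had 8 of 25 members (32%) higher and 3 (12%) lower, against 18.8% and 12.0% of all genes, or 7 and 4 as deposited. Cldn4, a tight junction claudin, was at least 6.10-fold higher, with 206 at 0 h and 82.6 at 24 h, and Elf3, an epithelial transcription factor, at least 5.85-fold. Cldn5, a claudin of blood vessels, gave 19.96 and 94.6 (4.74-fold), and Cldn7 was at least 4.04-fold higher. Of 18 endothelial markers with a ratio or bound, 2 (11.1%) were higher, Cldn5 and Eng (2.71-fold), and 0 lower, against 18.8% and 12.0% of all genes. With the values as deposited the counts were 2 and 1. The median of these markers lay 0.06 above that of all genes. Among them Cdh5 had a log2 ratio of -0.72 and Pecam1 of -0.35. Prkcz, an atypical protein kinase C of cell polarity, had agreeing sets, 3.25-fold and at least 2.42-fold higher. Lower members were Gjb2, connexin 26, with 32.6, 99.0 and 25.2 (3.93-fold), Epcam with 38.7, 265 and 77.1 (3.43-fold), and Gja1. The 3 lower members were highest at 12 h.

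**Figure D5:**
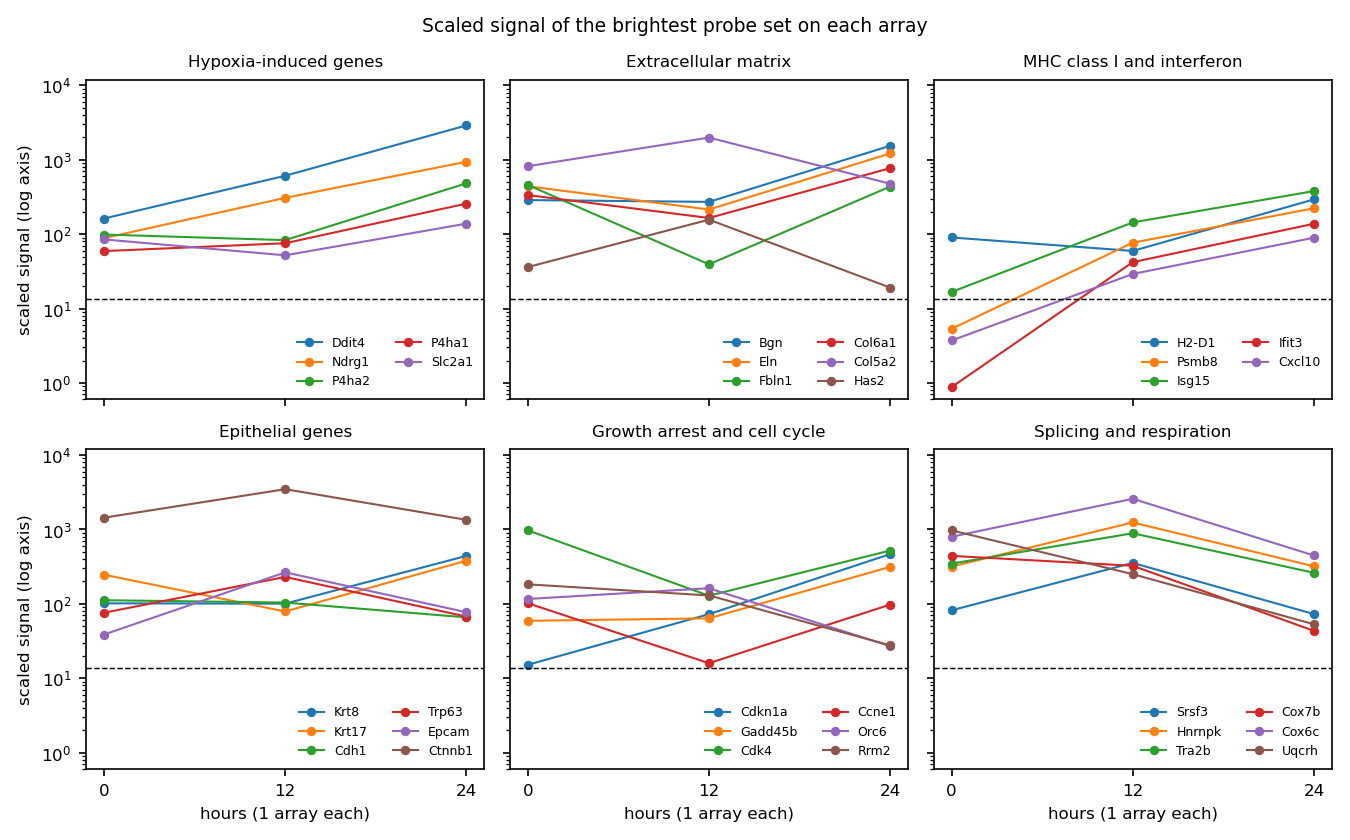
Scaled signal (y axis, log scale) of the brightest probe set of 34 genes named in the text on the arrays of 0, 12 and 24 h (x axis), 1 array each. Lines join the values of 1 gene and the dashed line is the floor of 13.53. Isg15, Ifit3, Cxcl10 and Ddit4 ascend from 0 h to 24 h, Fbln1 and Cdk4 dip at 12 h, and Trp63, Epcam, Hnrnpk and Cox6c peak at 12 h.

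The listed regulators and markers of palate fusion lay on both sides, and those measured upward on both arrays were under 2-fold. In a wider list of transformation factors and mesenchymal cytoskeleton, 7 of 35 members (20%) were higher and 2 (5.71%) lower, against 18.8% and 12.0% of all genes. Its median lay 0.10 below that of all genes, and was on that side in only 5 of 9 settings. Tgfb3, the ligand needed for seam removal, gave 120.4, 254 and 321 at 0, 12 and 24 h, a log2 ratio of 0.34 between the cultures. The array factors, 1.09 at 12 h and 1.36 at 24 h, enter every measured ratio. Small upward ratios such as this one are therefore smaller with the values as deposited. Tgfb2 gave 127 and 57.5 (2.21-fold lower). The transducer Smad2 gave 162 and 193 (log2 0.26, or -0.06 with the values as deposited), and Smad4, the partner shared by both branches of the pathway, 72.8, 722 and 353 (2.04-fold lower). Tgfb1, Tgfbr1, Tgfbr2, Smad3 and Jag2 were at the floor on both cultured arrays and have no ratio. The transformation factors Snai2, at 472 and 492, and Twist1, at 1444 and 1327, had log2 ratios of 0.06 and -0.12, which were -0.25 and -0.44 with the values as deposited and 0.26 and 0.23 after quantile normalization. Snai1 was at the floor at 12 h and reached 13.8 at 24 h. Fn1, fibronectin, had a log2 ratio of 0.45, Lef1, a partner of beta-catenin, 0.43, and Vim, vimentin, was at the floor at 12 h and at 22.4 at 24 h, at least 1.65-fold higher. Mmp13, a collagenase, was listed at 1.96 at 0 h, under the floor, and gave 90.2 at 12 h and 53.3 at 24 h (log2 -0.76).

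Over the whole pathway of transforming growth factor beta and bone morphogenetic proteins, 10 of 38 members (26.3%) were higher and 4 (10.5%) lower. Over all genes the shares were 18.8% and 12.0%. The counts were 6 and 4 both with the values as deposited and with the common median. The list median lay 0.12 above that of all genes. Ltbp4, which tethers the latent growth factor to matrix, gave 118, 34.0 and 259 at 0, 12 and 24 h (7.61-fold). Smad7, an inhibitor that the pathway induces, gave 44.7, 40.4 and 158 (3.90-fold), and Id1, a target of bone morphogenetic proteins, 472, 38.3 and 177 (4.64-fold). Acvr2b, a type II receptor, was at least 4.07-fold higher, whereas its relative Acvr2a gave 146 and 46.8 (3.11-fold lower) and 1.58-fold lower by its second set. Smad1 gave 2063 and 745 (2.77-fold lower) and was 1.90-fold lower by its second set. Smad7 and Ltbp4 were highest at 24 h, and Id1 stayed below its level at 0 h.

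Of 38 genes listed for the Wnt pathway, 12 (31.6%) were higher and 4 (10.5%) lower, against 18.8% and 12.0% of all genes. The median lay 0.47 above that of all genes, and the counts were 8 and 4 with the values as deposited. Of the higher ones, Fzd2, a receptor, Csnk1e, a kinase, and Dvl2, a transducer, were at the floor at 12 h and at least 10.6-fold, 8.93-fold and 3.41-fold higher. Fzd9, another receptor, gave 14.9 and 49.5 (3.31-fold). Outside the first 4, Axin1, part of the complex that degrades beta-catenin, gave 62.4 and 203 (3.25-fold), and Tcf7l2, a nuclear effector, 26.2 and 86.2 (3.29-fold). The lower ones were Ctnnb1, the antagonist Sfrp4 (at least 2.49-fold), Tcf3 (2.47-fold) and Fzd3 (2.36-fold, with a log2 ratio of 0.18 by its other set). Tcf3 counts here as listed, and by its current symbol it is a different gene from Tcf7l1 and may not belong to the pathway. Tcf7l1, another listed member, had log2 ratios of 1.15 by its brightest set and -0.12 by the next.

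Of growth factors and their receptors, 10 of 38 (26.3%) were higher and 5 (13.2%) lower, against 18.8% and 12.0% of all genes. With the values as deposited these were 7 and 6. Genes of the insulin-like growth factors had the largest ratios. Igf2, a fetal growth factor, gave 3087, 1684 and 6698 at 0, 12 and 24 h (3.98-fold between the cultures). The binding proteins Igfbp2 and Igfbp4 gave 514 and 391 at 0 h, 14.4 and 5.34 at 12 h, and 143 and 228 at 24 h, which is 9.96-fold and at least 16.8-fold higher. The other sets of Igfbp4 gave 1.65-fold and a bound of 1.41-fold. Mdk, the heparin-binding factor midkine, gave 1594, 244 and 1046 (4.28-fold). Lower members were Kitl, the ligand of Kit, with 128 and 46.9 (2.74-fold), and its receptor Kit with 56.5 and 20.7 (2.72-fold). Igf2 exceeded its level at 0 h, while Igfbp2, Igfbp4 and Mdk did not.

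Cell cycle genes lay on both sides. Cyclins, kinases and mitosis genes had 12 of 52 members (23.1%) higher and 9 (17.3%) lower, but 5 and 11 with the values as deposited. DNA replication genes had 7 of 38 (18.4%) higher and 8 (21.1%) lower, or 4 and 9 as deposited. Over all genes the shares were 18.8% and 12.0%. Ccne1, cyclin E1, gave 102, 15.9 and 97.5 at 0, 12 and 24 h (6.12-fold above 12 h at 24 h), and Ccnd3, cyclin D3, 366, 93.6 and 405 (4.33-fold). Ttk, a kinase of the spindle checkpoint, gave 77.0, 149 and 41.4 (3.61-fold lower) and Mad2l1, of the same checkpoint, 171, 472 and 195 (2.42-fold lower). In replication, Orc6, of the origin recognition complex, gave 116, 162 and 27.0 (6.00-fold lower), Rrm2, which makes deoxynucleotides, 183, 129.6 and 27.7 (4.69-fold lower), and the helicase subunit Mcm4 240.4, 175 and 45.7 (3.84-fold lower). The polymerase subunits Pold2 and Pold1 were at least 5.30-fold and 3.39-fold higher, with 213 and 161 at 0 h. Orc6, Rrm2 and Mcm4 had their lowest signal at 24 h, while Pold1 and Pold2 had theirs at 12 h. Of p53 targets and cell cycle inhibitors 4 of 22 (18.2%) were higher and 3 (13.6%) lower, near the 18.8% and 12.0% of all genes. With the values as deposited the counts were 3 and 5. The list median lay 0.24 below that of all genes, so the list as a whole was not raised. After Cdkn1a and Gadd45b its higher members were Gadd45g (35.2 and 124 at 12 h and 24 h) and Ei24 (301 and 738).

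Splicing factors and hnRNP proteins included 18 of 68 (26.5%) at least 2-fold lower at 24 h and 7 (10.3%) higher, against 12.0% and 18.8% of all genes. With the values as deposited 25 were lower and 4 higher. Their median lay 0.43 below that of all genes, and 0.27 to 0.54 below it across the settings. Fmr1, which binds RNA in translation, and Hnrnph2 were at the floor at 24 h and at least 10.4-fold and 8.32-fold lower. Srsf1 gave 193 and 37.8 by its brightest set (5.11-fold lower), 4.56-fold lower by a dimmer set and 1.10-fold higher by a set near the floor. Hnrnpk, an abundant RNA-binding protein, gave 317, 1242 and 319.7 at 0, 12 and 24 h (3.88-fold lower), and Tra2b, a splicing activator, 347, 889 and 262 (3.40-fold lower). Higher members were U2af1, of the 3' splice site, with 361, 25.3 and 105 (4.15-fold), Snrpb, a core snRNP protein, with 281 and 941 (3.35-fold), Prpf31 (at least 2.87-fold) and Srsf4, whose sets opposed each other. Hnrnpk, Tra2b and Srsf3 were highest and U2af1 lowest at 12 h.

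Subunits of the respiratory chain and ATP synthase included 12 of 55 (21.8%) at least 2-fold lower and 7 (12.7%) higher, against 12.0% and 18.8% of all genes. With the values as deposited 18 were lower and 5 higher. The list median lay 0.41 below that of all genes and below it in 9 of 9 settings. Cox7b gave 441, 325 and 43.4 at 0, 12 and 24 h (7.49-fold lower than at 12 h) and Uqcrh 972, 251 and 53.1 (4.71-fold lower). Cox6c gave 798, 2586 and 447 (5.78-fold lower), and Atp5c1 1548 and 317 (4.88-fold lower), with 1.29-fold lower by its second set. Higher were Uqcrc1 (50.4 and 312, 6.20-fold), Ndufv1 (155 and 675, 4.36-fold), Sdhc (80.5 and 313, 3.89-fold) and Ndufb8 (36.9 and 143, 3.88-fold). Subunits of 1 complex, Uqcrh and Uqcrc1 of the cytochrome bc1 complex, thus lay on opposite sides, and Cox7b and Uqcrh descended over the 3 arrays.

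Lysosomal genes had 14 of 41 members (34.1%) higher and 2 (4.88%) lower, against 18.8% and 12.0% of all genes. The median lay 0.24 above that of all genes, and the counts were 11 and 5 with the values as deposited. The protective protein Ctsa was at the floor at 12 h and at 115 at 24 h, at least 8.51-fold higher. Ctsd, an aspartic protease, gave 269, 53.8 and 356 at 0, 12 and 24 h (6.61-fold), Hexa, a subunit of hexosaminidase, 35.6 and 173 (4.85-fold), and Ctsf 15.4 and 70.1 (4.56-fold). Grn, progranulin, and Man2b1, an alpha-mannosidase, had agreeing sets, with 3.75-fold and 2.43-fold for Grn and 3.20-fold and 2.60-fold for Man2b1. The cysteine proteases Ctsc, with 94.6 and 31.7 (2.98-fold lower), and Ctss, with 508 and 278 (log2 -0.87), stood on the other side, together with the ceramidase Asah1 (2.20-fold lower).

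The largest upward ratio measured was that of Prrx2, a homeobox factor of craniofacial mesenchyme, with 299, 14.9 and 341 at 0, 12 and 24 h (22.8-fold). After it came Rnf167, a ubiquitin ligase of endosomes (16.4 and 213, 13.0-fold), Eef2, the elongation factor that moves the ribosome (1111, 85.4 and 976, 11.4-fold), and Ssr2, of the translocon complex (21.7 and 242, 11.1-fold). In the other direction Ppp1cb, a catalytic subunit of protein phosphatase 1, gave 278, 445 and 16.7 (26.7-fold lower), Ahr, the aryl hydrocarbon receptor, 49.5, 209 and 14.4 (14.5-fold lower), Dnajb9, a chaperone of the endoplasmic reticulum, 28.4, 241 and 24.1 (9.97-fold lower), and Mgst1, a membrane glutathione transferase, 30.3, 264 and 29.3 (9.02-fold lower). Each of these 8 genes has only 1 probe set with a ratio, so none has the check of a second set. At 12 h the first 4 had their lowest signal and the last 4 their highest. The next in rank upward were Fbln1, Itgb5, Adcy2, Igfbp2, Ppp4c and Ptprs (11.1-fold to 8.44-fold), and downward Rasa1, Slirp, Has2, Map11, Dtd2 and Dnajb11 (8.98-fold to 7.80-fold). Map11 is among the genes with opposed sets.

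Some genes were bright on 1 array and at the floor on the other. At the floor at 12 h and brightest at 24 h were Igfbp4, Gnb2, Cdc37, Septin9 and Lgals9, at least 16.8-fold to 14.9-fold higher. Gnb2, a G-protein subunit, gave 543 at 0 h and 219 at 24 h, and Cdc37, a co-chaperone of kinases, 431 and 217. Lgals9, a galectin, gave 22.2 and 202, but its other set was at the floor at 24 h with a bound of 1.92-fold lower. At the floor at 24 h were Fmr1, Topbp1, Hnrnph2, Ireb2 and Ggh, at least 10.4-fold to 6.23-fold lower, with signals at 12 h of 141, 114, 113, 86.3 and 84.2. Topbp1 acts in the start of replication and in DNA damage signalling, and Ireb2 regulates iron metabolism.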

How the data were processed

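RNA of 3 samples was measured on 1-colour Affymetrix mouse arrays. The deposited values are signal intensity per probe set on a linear scale, made by the authors with Microarray Suite 5.0 and read in GeneSpring 6.0, per the labels' protocols. Each array was scaled here to a common 2% trimmed mean (factors 0.676, 1.09 and 1.36 at 0, 12 and 24 h), floored at the pooled 40th percentile (13.53) and set to log2, after 66 control sets were left out. Of 12422 other sets, 10833 name 1 gene, 396 several and 1193 none in GEO's platform annotation, with symbols updated by gene ID. No test was run, since each side has 1 array and a model of spread cannot be fitted; the scripts were tested on simulated data. The number of arrays limits the precision. Alternatives were values as deposited, median, quantile and lowess scaling (span 0.4), scaling from the cultured arrays alone, floors at other percentiles, the mean over probe sets, and leaving out sets of lower specificity. Genes named are up to 25 with agreeing probe sets each way, up to 4 members of a list each way with agreeing or opposed members, the 10 largest measured ratios and 5 brightest bounds each way, and palate regulators. Members and lists were chosen with earlier results of these data known. Promoters are from RefSeq, build GRCm38.p6. Python 3.11.15, numpy 2.4.6, pandas 2.3.3, statsmodels 0.14.6 and matplotlib 3.10.9 were used.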

Additional observations from a re-analysis of the deposited data

How the results depend on the processing

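With 1 array a side no setting could be given a test, and no replicate could be left out. No paired analysis was possible because each group holds 1 array. Over the alternatives, 2239 of 2366 values of 267 named genes moved by less than the SD between probe sets, 0.82 in log2. A further 113 moved more, and 14, of 13 genes past 2-fold, changed sign. Scaling by a constant shifts all measured ratios alike, and another floor leaves a ratio unchanged while both signals stay above it. The first count is therefore largely set by the choice of settings and is no measure of how firm the ratios are. The genes higher at 24 h were 702 with values as deposited and 660 with the floor at the 60th percentile, and the genes lower were 1112 with arrays scaled to a common median. Genes with agreeing sets upward were 29 with values as deposited, 35 with the common median, 22 with the higher floor, 18 without probe sets of lower specificity, 33 with only sets above the floor on both arrays, and 125 by the same sign and a mean of 2-fold. Downward they were 59 with values as deposited, 62 with the common median, 35 after quantile normalization, 39 with the floor at the 20th percentile, 5 without sets of lower specificity, and 75 by sign and mean. The last rule is the looser by construction, and fewer sets were available without those of lower specificity. Values as deposited and the common median shift all measured ratios downward by a constant, which by construction lowers upward counts and raises downward ones. The floors at the 60th and 20th percentile left 546 and 1648 genes with 2 or more sets, against 1001. For the remaining changes the cause was not tested.

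The log2 ratios that changed sign belong to genes whose probe sets differ. With values as deposited Map11 had 2.11, and with the common median Rpn1 had -1.37. With the mean over probe sets Csnk2a1 had 0.14, Cyb5r1 -0.26, Iqgap1 0.062, Lypla1 -0.31, Rpl22 -0.10, Tnc -0.53, Tug1 0.21 and Wipi2 -0.12. Without sets of lower specificity Fzd3 had 0.18, H2-K1 -0.28, Itgav 0.17 and Map11 2.53. Signals near the floor limit the ratios of dim genes.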

Other observations

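Genes of chromatin regulators and HMG proteins were spread widely, with 19 of 61 (31.1%) higher by 2-fold or more at 24 h and 13 (21.3%) lower. Over all genes the shares were 18.8% and 12.0%. With the values as deposited the list had 9 and 14. Trim28, a corepressor recruited by zinc finger proteins, gave 1213, 102 and 536 at 0, 12 and 24 h (5.26-fold between the cultures), and Ehmt2, a histone H3 methyltransferase, 272, 15.1 and 62.0 (4.12-fold). Of Polycomb genes, Phc2 was at least 4.68-fold higher, Cbx2 4.39-fold higher by a bright set and 1.30-fold lower by a dim one, and Eed gave 306 and 70.4 (4.35-fold lower). Hmgb2, a DNA-bending protein of dividing cells, was 3.96-fold lower, and Smarca2, a remodelling ATPase, 3.25-fold lower. In the ubiquitin system 10 of 56 (17.9%) were higher, near the share of all genes, and 4 (7.14%) lower, or 8 and 12 as deposited. The median lay 0.41 below that of all genes. Ube2v1, Ube2s and Stub1 were 5.06-fold, 5.04-fold and 5.03-fold higher, and Usp14, a deubiquitinase of the proteasome, was 3.58-fold lower.

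Of matrix proteases and inhibitors 7 of 25 (28%) were higher and 2 (8%) lower, against 18.8% and 12.0% of all genes. With the values as deposited these were 4 and 3. The 7 include Prss8 and Serpinf1 by their brightest sets, although their sets opposed each other. Bsg, an inducer of matrix metalloproteinases, gave 399.6, 42.6 and 320.1 at 0, 12 and 24 h (7.51-fold), Mmp9 17.9 and 67.5 at 12 h and 24 h (3.77-fold) and Mmp14, a membrane-bound collagenase, 112 and 300.025 (2.67-fold). Adam10, a sheddase, gave 340.3 and 88.1 (3.86-fold lower) and Mmp3 42.1 and 14.4 (2.93-fold lower). Chemokines and acute phase genes had 8 of 24 (33.3%) higher and 1 (4.17%) lower, but 3 and 3 with the values as deposited and 4 and 4 with the common median. Saa3, an acute phase protein, gave 2.64, 106 and 316 at 0, 12 and 24 h, and Ccl2, the member on the other side, 14, 168 and 77.4. Immediate early genes divided, 9 of 36 (25%) higher and 7 (19.4%) lower, or 4 and 10 as deposited. Ier2 was 3.11-fold higher, while Fos gave 1969, 3119 and 1290.0 (2.42-fold lower than at 12 h) and Klf6 had a log2 ratio of -1.58. Of striated muscle markers 6 of 24 (25%) were higher and 1 (4.17%) lower, or 4 and 1 as deposited. Casq1, a calcium-binding protein of muscle, led at 21.6 and 61.8 (2.86-fold). Of neural and glial markers 3 of 19 (15.8%) were higher, led by Nes (3.92-fold), and 4 (21.1%) lower, led by Fabp7. Of globins and erythroid markers 2 of 13 (15.4%) were higher, Hba-a1 and Klf1, and 0 lower. In the last 2 lists the upward share lay below the 18.8% of all genes. Hba-a1, a globin, gave 2407, 228 and 570.0 at 0, 12 and 24 h. Fabp7, a marker of glial progenitors, gave 273 and 62.4 on the earlier arrays and lay under the floor at 24 h. Probe sets that name no gene or several had 129 of 827 at least 2-fold higher and 99 lower, with a median log2 ratio of 0.11.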
